A study of Mus musculus with 6 samples.

Results

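The genes described here encode the constitutive proteasome, the protein-degrading complex that every cell carries, together with its assembly factors and regulators. They were taken as every gene with a symbol of the Psma, Psmb, Psmc, Psmd, Psme, Psmf or Psmg series followed by a number, without the interferon-induced subunits Psmb8, Psmb9, Psmb10, Psme1 and Psme2. The rule found 81 probe sets for 44 of the 12393 genes named by a probe set with 1 symbol. Of these genes, 42 belong to the proteasome and its partners. The other two match by symbol only: Psmc3ip, a cofactor of recombination in meiosis, and Psme3ip1, which binds the activator encoded by Psme3.

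RNA came from the proximal colon of 3 mice heterozygous for a gene trap in Mthfd and of 3 wild-type mice, 1 array per mouse. Both genotypes were 8 weeks old and had received AIN-93G, a defined control diet, for 5 weeks after weaning at 3 weeks. The trap line came from BayGenomics. It is a disruption of 1 allele in the whole animal, and the sources used here do not give the strain, the sex or the trap's position. The titles call the samples biological replicates, and no other source of spread can be separated with 3 arrays per genotype.

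The proteasome is built from a barrel, the core particle (20S), and a cap, the regulatory particle (19S). The core particle stacks rings of alpha subunits, which gate the entry, around rings of beta subunits, some of which cut proteins. The cap binds ubiquitin-tagged proteins, removes the ubiquitin, and unfolds and feeds the chain with a ring of ATPases. When proteasome activity is short, the transcription factor Nfe2l1 is known to raise many of these genes together through antioxidant response elements, and interferon replaces the cutting beta subunits by induced ones.

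Because these genes are known for moving together, the promoters of Psmb5, Psmb6 and Psmd11 are shown beside that of the induced Psmb8, as RefSeq gives them on GRCm38.p6. Each line holds the 250 bases before the start of the gene, 5′ to 3′ on the gene's strand. Psmb5 and Psmb6 encode cutting subunits and hold a core of the antioxidant response element, in capitals. It begins 47 bases before the start in Psmb5, on the minus strand at chr14:54617996-54618245, and 9 bases before the start in Psmb6, on the plus strand at chr11:70525107-70525356. Psmd11 stands for the cap genes with an ETS core, in capitals 10 bases before the start and read on the opposite strand, on the plus strand at chr11:80428365-80428614. Psmb8 is the induced counterpart of Psmb5 and is shown for contrast, with a gamma activated site core in capitals 97 bases before the start, on the plus strand at chr17:34197945-34198194.
Psmb5: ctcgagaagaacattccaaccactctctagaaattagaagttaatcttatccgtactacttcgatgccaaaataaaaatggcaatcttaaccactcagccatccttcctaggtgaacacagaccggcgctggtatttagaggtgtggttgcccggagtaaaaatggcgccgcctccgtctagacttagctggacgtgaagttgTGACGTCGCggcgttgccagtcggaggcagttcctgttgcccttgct
Psmb6: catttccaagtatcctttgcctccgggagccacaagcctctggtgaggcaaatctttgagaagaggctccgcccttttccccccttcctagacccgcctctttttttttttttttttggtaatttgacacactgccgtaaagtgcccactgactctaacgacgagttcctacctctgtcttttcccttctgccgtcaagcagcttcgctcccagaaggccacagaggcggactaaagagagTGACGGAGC
Psmd11: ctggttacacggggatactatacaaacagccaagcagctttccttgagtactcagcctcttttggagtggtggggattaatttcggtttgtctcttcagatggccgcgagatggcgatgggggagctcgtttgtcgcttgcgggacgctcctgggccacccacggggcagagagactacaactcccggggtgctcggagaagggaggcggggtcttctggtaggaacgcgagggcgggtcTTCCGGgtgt
Psmb8: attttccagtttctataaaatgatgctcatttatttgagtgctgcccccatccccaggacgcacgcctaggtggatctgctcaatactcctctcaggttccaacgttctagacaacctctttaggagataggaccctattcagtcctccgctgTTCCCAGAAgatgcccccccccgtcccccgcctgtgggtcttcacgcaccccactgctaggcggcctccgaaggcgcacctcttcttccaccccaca

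Motifs were searched on both strands of windows reaching from 250 bases before to 50 bases after the start. By symbol, 36 of the 44 genes matched a window, among them 25 of the 31 core and regulatory particle genes with 27 windows. The antioxidant response element core, searched as TGACNNNGC, lay in 14.8% of these windows and in 12.4% of all 32851 windows, so it was about as frequent here as elsewhere. The ETS core CCGGAA lay in 15 of 27 windows, or 55.6%, against 14.9% of all windows and 27.2% of those of the tested genes. It was found in 11 of 15 windows of the regulatory particle and in 4 of 12 of the core particle. The GC box GGGCGG lay in 55.6% of the proteasome windows, against 35.7% of all windows and 62.6% of those of the tested genes. The CCAAT box lay in 37.0% of the proteasome windows and in 37.4% of all windows. An interferon stimulated element core, GAAANNGAA, lay in 14.8% of the proteasome windows and in 8.56% of all windows, and a gamma activated site core, searched as TTCNNNGAA, in 3.70% and in 8.30%. Among the induced genes, 1 of 6 windows held the gamma activated site core and 1 of 6 the interferon stimulated element core. The ETS core lay in 0 of these 6. The searches for these 2 interferon-related cores were added after the values had been seen. Copies of them and of the ETS core can overlap, since all hold GAA, and a match is a string of letters and not a binding site.

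The signals are the deposited intensities of the probe sets, and no detection calls come with them. Every array had the same trimmed mean of 500, and median signals lay between 156.8 and 168.2. After a filter on low signal, 13576 probe sets and 8243 genes were tested, among them 43 of the 44 genes. Psma8, a core subunit largely restricted to testis, had a mean signal below the filter, at 4.1, 24.1 and 27.2 in heterozygous colon, against 28.0, 10.6 and 5.6 in wild-type colon. A gene is given by its brightest probe set, and levels are not compared between genes. Mthfd1, taken as the trapped gene, read 453.1, 509.6 and 549.4 in heterozygous colon, against 949.9, 838.6 and 881.4 in wild-type colon (log2 difference -0.80, SE 0.12, limma adjusted p = 0.125), lower on every heterozygous array, although the probes' position relative to the trap is not known here. The colonocyte markers, Car1 and Slc26a3 among them, had summed signals of 101929 to 117871 in heterozygous and 104362 to 116010 in wild-type colon. These sums are set mostly by the brightest genes. Aqp8, a dimmer one, read 1128.3, 3454.3 and 2886.3 in heterozygous colon, against 1346.4, 2562.1 and 667.8 in wild-type colon. Of the 14 tested colonocyte genes, 7 had a positive and 7 a negative log2 difference. All 7 tested goblet cell genes had a negative one, where 3995 of all 8243 tested genes did.

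No proteasome gene passed the test between the genotypes. Of the 43 tested genes, 0 had a limma adjusted p under 0.05, against a background of 0% of all probe sets, and the smallest was 0.917. At an unadjusted p under 0.05 there were again 0 of 43, where the background was 5.34% of all tested genes, 3.15% with higher and 2.18% with lower signal in heterozygous colon. The signals of the genotypes overlapped for every one of the 43, while they did not overlap for 10.7% of all tested genes (5.58% higher and 5.07% lower in heterozygous colon). Among the 1248 tested genes at least as bright as the dimmest core particle gene, 4.25% had an unadjusted p under 0.05 and 7.61% did not overlap. In whole tissue, fewer cells of a type and less RNA per cell cannot be told apart.

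The differences were also small. The median log2 difference, heterozygous minus wild-type, was 0.06 over the 14 core particle genes and 0.04 over the 17 regulatory particle genes, beside 0.01 over all tested genes. It was positive for 12 of 14 and for 11 of 17. Positive differences were found for 4248 of all 8243 tested genes. They were found for 728 of the 1248 genes at least as bright as the dimmest core particle gene. The counts of signs given below stand beside these shares. The median absolute difference of the core particle genes was 0.07, with a median SD within genotypes of 0.12, beside 0.11 and 0.17 over all tested genes. Over the 1248 genes of at least that brightness the same values were 0.07 and 0.13, close to those of the core particle. All unadjusted 95% intervals of core particle genes lay between -0.38 and 0.43, that is between 77.0% and 135% of the wild-type level. Those of the regulatory particle reached from -1.23 to 0.44, and Psmc4 set the lower end. With the mean of all probe sets of a gene in place of the brightest, the regulatory particle's median was -0.04, so its direction rests on the choice of probe set.

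**Figure D1:**
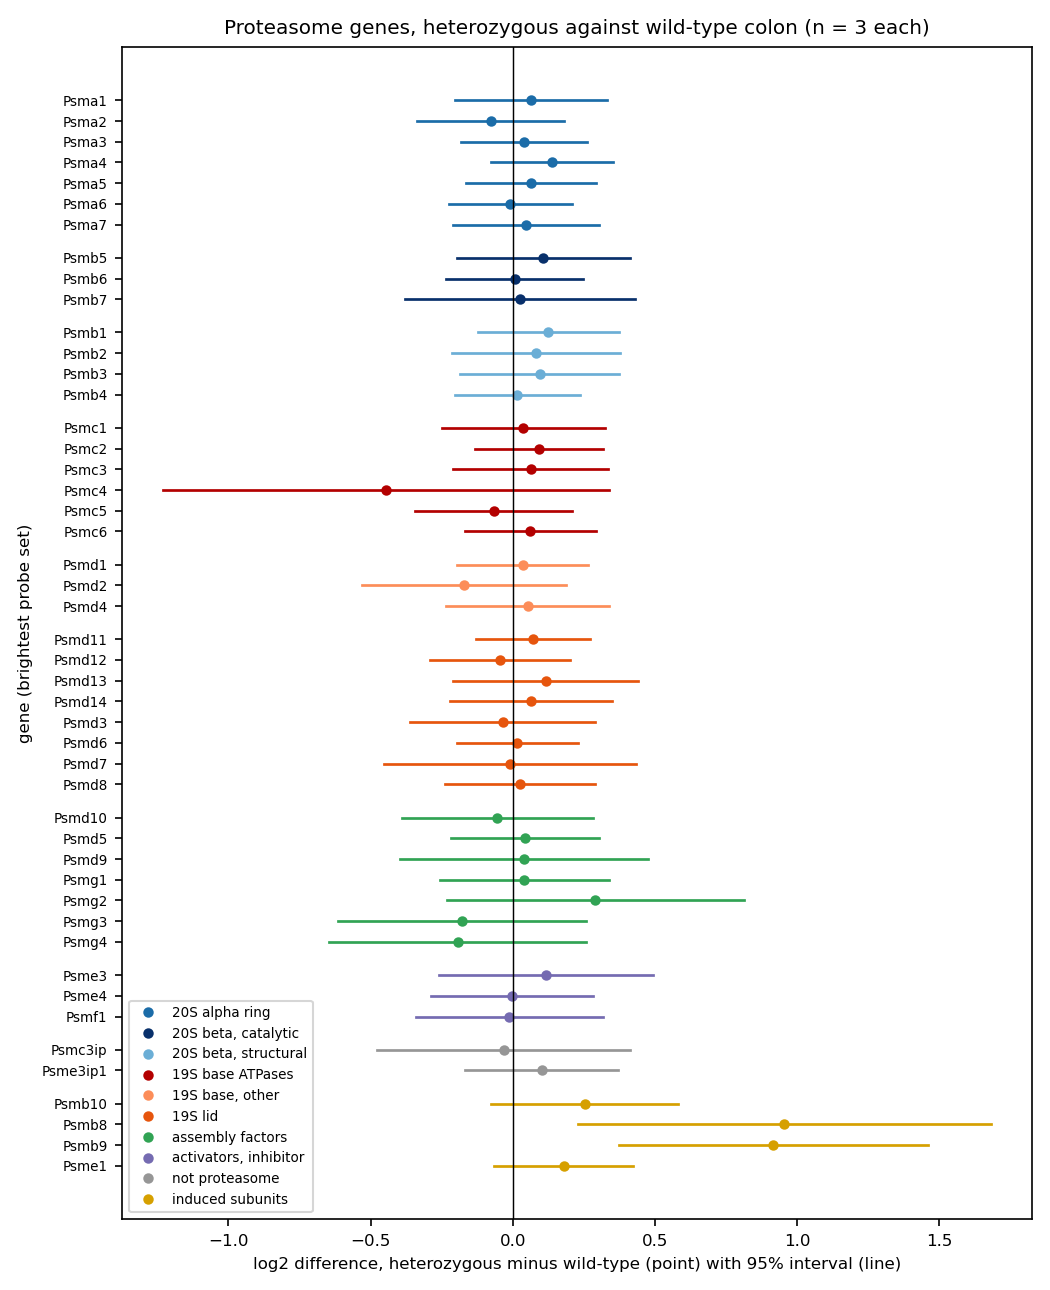
Log2 difference (x axis, heterozygous minus wild-type, points) with its unadjusted 95% interval (lines) for each tested proteasome gene at its brightest probe set, in the groups of the colour key, n = 3 arrays per genotype. The intervals of all 43 constitutive genes cross 0, Psmc4 has the widest interval of the particle genes, and Psmb8 and Psmb9 among the induced subunits lie at 0.95 and 0.92.

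Within the core particle, the 3 cutting subunits carry the protease activity. Psmb5, with the chymotrypsin-like site, read 1953.5, 1859.2 and 1961.0 in heterozygous colon, against 2185.2, 1574.2 and 1651.5 in wild-type colon. The heterozygous arrays lay close together, and the wild-type arrays lay on both sides of them. The log2 difference was 0.11 (SE 0.14, limma adjusted p = 0.953).

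Psmb6, with the caspase-like site, read 2419.5, 2212.3 and 2323.7 in heterozygous colon, against 2581.9, 2203.9 and 2152.6 in wild-type colon, a log2 difference of 0.01 (SE 0.11). Again wild-type replicate 1 was the highest of the 6 arrays, and the other two wild-type arrays were the lowest. Psmb7, with the trypsin-like site, read 4800.2, 3181.0 and 4867.1 in heterozygous colon, against 5006.2, 3701.7 and 3796.3 in wild-type colon, a log2 difference of 0.03 (SE 0.18). Here heterozygous replicate 2 was the lowest array, and the spread within genotypes was the largest of the 14 core genes.

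The alpha ring forms the outer gate of the barrel. Of its 7 genes, 5 had a positive and 2 a negative log2 difference, with a median of 0.05. Psma4 had the smallest p of all 43 genes, 0.178 before adjustment, and read 3735.8, 3478.9 and 4121.8 in heterozygous colon, against 3442.9, 3554.7 and 3277.8 in wild-type colon (log2 difference 0.14, SE 0.09). Heterozygous replicates 1 and 3 were above all wild-type arrays and replicate 2 was not. Psma2, the lowest of the ring by log2 difference at -0.08 (SE 0.11), read 3343.6, 3062.5 and 3453.1 in heterozygous colon, against 3797.8, 2970.0 and 3685.2 in wild-type colon. Psma7 read 2073.6, 2067.3 and 2075.8 in heterozygous colon, against 2262.6, 1769.0 and 2017.2 in wild-type colon, so its heterozygous arrays differed by an SD of 4.41 and its wild-type arrays by an SD of 247. Psma6 showed the same shape, with 3271.2, 3295.1 and 3279.9 in heterozygous and 3666.9, 3131.6 and 3129.5 in wild-type colon. The remaining Psma1, Psma3 and Psma5 had log2 differences between 0.04 and 0.07.

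The 4 beta subunits without a cutting site hold the inner rings together. All 4 had a positive log2 difference, with a median of 0.09. Psmb1 read 2657.5, 2390.6 and 2489.7 in heterozygous colon, against 2559.8, 2306.8 and 2057.6 in wild-type colon (log2 difference 0.13, SE 0.11, limma adjusted p = 0.937). Its 2 dimmer probe sets pointed the other way, at log2 -0.25 and -0.39. Psmb3 read 2516.6, 2373.6 and 2395.5 in heterozygous colon, against 2695.7, 1984.4 and 2191.9 in wild-type colon (log2 difference 0.10, SE 0.12), and its second probe set gave 0.08. For Psmb2 the log2 difference was 0.08 and for Psmb4 0.02.

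The base of the regulatory particle holds the 6 ATPases that unfold substrates. Of these, 4 had a positive and 2 a negative log2 difference, with a median of 0.05. Psmc4 varied most: its brightest probe set read 578.5, 1238.5 and 442.3 in heterozygous colon, against 1316.7, 799.6 and 778.1 in wild-type colon. Heterozygous replicate 2 and wild-type replicate 1 were high and heterozygous replicates 1 and 3 were low, so the log2 difference of -0.45 had an SE of 0.35 (limma adjusted p = 0.926). The second probe set of Psmc4 read 793.7, 751.9 and 858.9 in heterozygous colon, against 864.5, 774.3 and 761.5 in wild-type colon. It was nearly even over the 6 arrays, with a log2 difference of 0.00 (SE 0.12), and did not show the pattern of the first. Without heterozygous replicate 2 the brighter one had a log2 difference of -0.87 (unadjusted p = 0.00705, limma adjusted p = 0.829), where 4.53% of all genes had an unadjusted p under 0.05. Over the 6 arrays left out in turn the difference ran from -0.87 to -0.14, the smallest without heterozygous replicate 3.

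Psmc2, another ATPase of the ring, read 2763.8, 2605.8 and 2812.9 in heterozygous colon, against 2819.0, 2412.0 and 2458.2 in wild-type colon (log2 difference 0.09, SE 0.10). Its second probe set gave -0.07, so the sign was not shared. Psmc1, Psmc3 and Psmc6 had log2 differences of 0.04, 0.06 and 0.06, and Psmc5 had -0.07.

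The base also holds scaffold and receptor subunits. Psmd2, a large scaffold to which ubiquitin-handling proteins dock, read 1455.0, 2138.5 and 1649.3 in heterozygous colon, against 1799.6, 2257.0 and 1807.1 in wild-type colon (log2 difference -0.17, SE 0.16), and -0.32 to -0.05 with single arrays left out. Replicate 2 of each genotype was the highest of its group. These were also the 2 arrays with the highest mean centred log2 level of small-intestinal enterocyte genes, at 1.08 (heterozygous) and 1.65 (wild-type), against -1.60 to 0.36 on the other 4, and the part of those genes in the Psmd2 values was not tested. Psmd4, a ubiquitin receptor, read 1647.9, 1666.7 and 2090.4 in heterozygous colon, against 1894.8, 1642.3 and 1653.3 in wild-type colon (log2 difference 0.05, SE 0.13). Its other tested probe set gave -0.12. Psmd1, the partner scaffold, was the steadiest of the base, with 1238.6, 1251.6 and 1263.5 in heterozygous and 1192.4, 1269.4 and 1201.5 in wild-type colon.

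The lid covers the base and carries Psmd14, the enzyme that cuts ubiquitin chains from substrates. Of its 8 genes, 5 had a positive and 3 a negative log2 difference, with a median of 0.02. Psmd14 read 2190.0, 2255.7 and 2300.2 in heterozygous colon, against 2578.9, 1998.0 and 1927.5 in wild-type colon (log2 difference 0.06, SE 0.13), which again placed the heterozygous arrays between wild-type replicate 1 and the other two. Psmd13, a structural lid subunit, read 707.1, 580.7 and 675.3 in heterozygous colon, against 707.9, 539.5 and 565.7 in wild-type colon (log2 difference 0.12, SE 0.14), and -0.06 by its second probe set.

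Psmd11, a lid subunit that braces the cap against the barrel, read 3086.5, 3475.9 and 3341.5 in heterozygous colon, against 3177.3, 3152.6 and 3084.2 in wild-type colon (log2 difference 0.07, SE 0.09). It had 5 tested probe sets, whose log2 differences ran from -0.21 to 0.33. The array with its highest value was heterozygous replicate 2, unlike most of the lid. Psmd7, the partner of Psmd14, had the widest spread within genotypes in the lid, with 615.9, 424.4 and 547.5 in heterozygous and 637.4, 569.4 and 402.5 in wild-type colon. The log2 differences of Psmd3, Psmd6, Psmd7, Psmd8 and Psmd12 lay between -0.04 and 0.03.

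Assembly factors guide the particles together and leave before the complex works. Of the 7 genes, 4 had a positive and 3 a negative log2 difference, with a median of 0.04. Psmg2, a chaperone of the alpha ring, read 931.2, 525.0 and 573.9 in heterozygous colon, against 606.9, 410.4 and 605.0 in wild-type colon (log2 difference 0.29, SE 0.23, limma adjusted p = 0.926). Heterozygous replicate 1 stood above the other 5 arrays, and without it the difference was 0.04. The second probe set of Psmg2 gave 0.24 (SE 0.16) and was also highest on heterozygous replicate 1. Psmg4, which acts on the same ring, read 194.4, 235.0 and 329.0 in heterozygous colon, against 340.9, 254.8 and 265.7 in wild-type colon (log2 difference -0.19, SE 0.20). Without heterozygous replicate 1 it was -0.03, without wild-type replicate 1 it was -0.07 and without heterozygous replicate 3 it was -0.39. Psmg3, its partner, had -0.18, and Psmg1, the partner of Psmg2, had 0.04. The base chaperones Psmd5, Psmd9 and Psmd10 had 0.04, 0.04 and -0.05.

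Other caps and an inhibitor act on the barrel in place of the regulatory particle. Psme3, which encodes a nuclear activator, read 265.7, 348.9 and 405.0 in heterozygous colon, against 334.7, 283.4 and 307.1 in wild-type colon (log2 difference 0.12, SE 0.17). Psme4, a large activator of the nucleus, had a log2 difference of 0.00 (SE 0.13). Its dimmest probe set read 502.8, 520.0 and 487.4 in heterozygous colon, against 434.3, 480.0 and 468.6 in wild-type colon and was the 1 tested member probe set with every heterozygous array above every wild-type array.

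Psmf1, an inhibitor of the core particle in the test tube, read 349.7, 287.5 and 275.3 in heterozygous colon, against 311.2, 337.2 and 271.0 in wild-type colon at its brightest probe set (log2 difference -0.01, SE 0.15). It has 3 dimmer probe sets, and 2 of them, both tested, did not overlap between genotypes. The first read 151.0, 169.0 and 140.3 in heterozygous colon, against 187.3, 189.7 and 196.6 in wild-type colon (log2 difference -0.29, SE 0.14, limma adjusted p = 0.901), with an unadjusted p of 0.0713, the smallest of the 68 tested member probe sets. None of the 68 had an unadjusted p under 0.05, where the background was 5.68% of all probe sets. The second read 126.7, 133.6 and 139.5 in heterozygous colon, against 162.5, 148.4 and 141.6 in wild-type colon (log2 difference -0.16). Every heterozygous array was below every wild-type array at both, while the brightest probe set overlapped. The dimmest, below the filter and not tested, read 57.2, 81.7 and 58.8 in heterozygous colon, against 42.5, 65.5 and 17.4 in wild-type colon, with overlap and a higher heterozygous mean. Of the 68 probe sets, 3 did not overlap between genotypes, where the background was 10.4% of probe sets with 1 symbol. Among the member probe sets below the filter, those that did not overlap belonged to Psma1, Psmc1, Psmc6 and Psme3. All lay lower in heterozygous colon, at mean signals of 11.7 to 64.6, and were not tested. The share of all probe sets below the filter that did not overlap was not computed, so these are not read as a difference.

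Psmc3ip read 105.9, 109.3 and 75.5 in heterozygous colon, against 101.4, 98.4 and 95 in wild-type colon and Psme3ip1 read 783.6, 701.9 and 833.3 in heterozygous colon, against 747.2, 679.3 and 726.2 in wild-type colon. Their log2 differences were -0.03 (SE 0.20) and 0.10 (SE 0.12).

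Probe sets of 1 gene often differed in sign. Among the 18 genes with at least 2 tested probe sets, 10 held both signs and 8 held 1 sign. Those with both were Psma6, Psmb1, Psmc2, Psmc4, Psmc6, Psmd4, Psmd6, Psmd11, Psmd13 and Psme4. The 25 tested probe sets that were not the brightest of their gene had a median log2 difference of -0.06, with 11 positive and 14 negative. The mean of all probe sets of a gene, those below the filter included, was followed singly for part of the members. Among these, the log2 difference was -0.17 for Psmb1, -0.17 for Psmd4, -0.02 for Psmd11, -0.21 for Psme3 and 0.03 for Psmf1. Each had the other sign than at the brightest. By that mean, 7 of all 17 regulatory particle genes were positive, against 11 at the brightest. Dimmer probe sets of these genes therefore did not share the small positive median of the brightest.

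For these genes the arrays of 1 genotype differed more than the genotypes did. Wild-type replicate 1 was the highest of the 6 arrays for 11 of 14 core particle genes and for 10 of 17 regulatory particle genes, or 67.7% of the 31. For all tested genes the share was 16.1%, and for the genes at least as bright as the dimmest core particle gene it was 23.4%. The lowest array was wild-type replicate 2 for 12 of the 31 genes and wild-type replicate 3 for 14. On the log2 scale, centred per gene, the mean of the 31 genes was 0.03, -0.02 and 0.02 in heterozygous colon, against 0.15, -0.08 and -0.10 in wild-type colon. The SD was 0.03 over the heterozygous and 0.14 over the wild-type arrays (n = 3 each), so the wild-type arrays enclosed the heterozygous ones. After quantile normalization, chosen after seeing the data for this count, wild-type replicate 1 was still the highest for 16 of the 31.

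**Figure D2:**
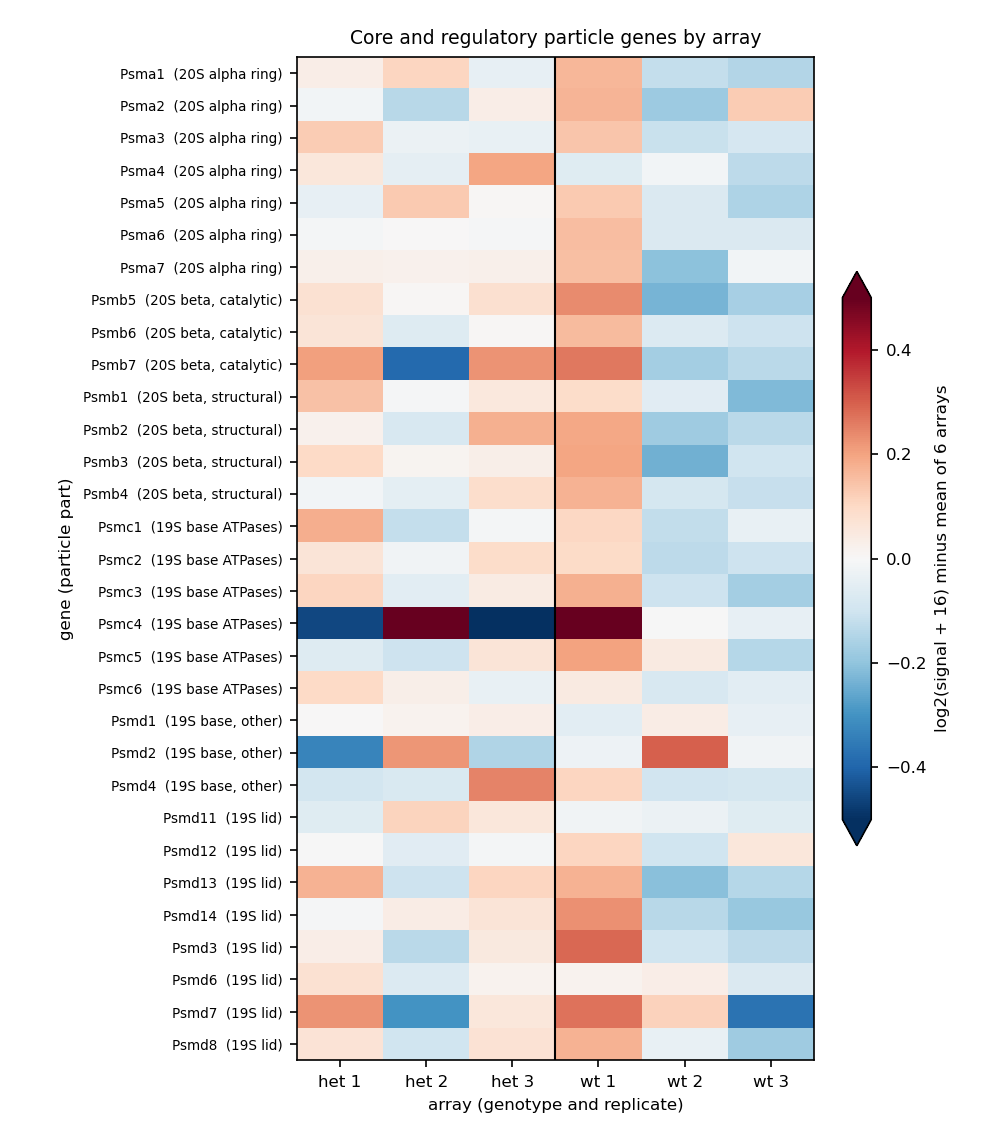
Log2(signal + 16) minus the mean of the 6 arrays (colour, log2 units) for the 31 core and regulatory particle genes (rows) on each array (columns, heterozygous left of the line). The column of wild-type replicate 1 is the highest for 21 of 31 genes, and wild-type replicates 2 and 3 hold the lowest value for 26. Among the exceptions, Psmc4 is highest on wild-type replicate 1 but lowest on heterozygous replicate 3. Psmd2 and Psmd1 are highest on wild-type replicate 2, and lowest on heterozygous replicate 1 and wild-type replicate 1.

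The groups of genes did so to different degrees. The alpha ring means were 0.03, 0.01 and 0.03 in heterozygous colon, against 0.12, -0.11 and -0.07 in wild-type colon. The base ATPases were at -0.01, 0.06 and -0.11 in heterozygous colon, against 0.22, -0.07 and -0.09 in wild-type colon. The scaffold and receptor subunits of the base, with -0.14, 0.05 and 0.04 in heterozygous colon against 0.01, 0.08 and -0.05 in wild-type colon, were not highest in wild-type replicate 1. The activators and the inhibitor were not highest there either, while the assembly factors were, at 0.15.

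**Figure D3:**
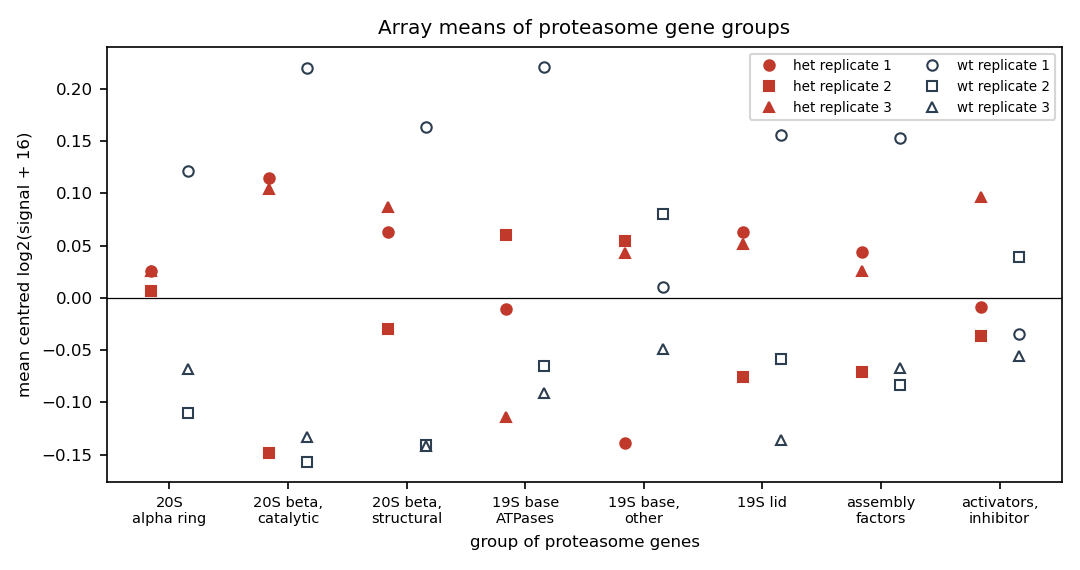
Mean over the genes of a group of log2(signal + 16) centred per gene (y axis, log2 units), 1 point per array, heterozygous filled and left of wild-type open, for 8 groups of proteasome genes (x axis). Wild-type replicate 1 is the highest point in 6 of the 8 groups, and the base scaffold and receptor group and the activators and inhibitor are the exceptions.

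The comparison depended on wild-type replicate 1. Without that array the median log2 difference was 0.14 over the core particle and 0.10 over the regulatory particle, and 27 of the 31 were positive. Then 16 of the 31 genes lay wholly above wild-type colon and 0 wholly below, where 11.8% of all tested genes lay wholly above and 10.4% wholly below. Leaving out the array that was highest for 21 of the 31 favours this outcome. These genes also moved together across the arrays, so the 16 are not separate observations of a genotype difference. With any other single array left out, 0 to 2 of the 31 lay wholly above and 0 to 2 wholly below, where 8.07% to 13.9% of all tested genes lay wholly above and 8.09% to 12% wholly below. Psmb5, also highest on wild-type replicate 1, had a log2 difference of 0.25 without that array. Its unadjusted limma p was 0.0426, where 5.17% of genes had one under 0.05, and its limma adjusted p was 0.88. Without wild-type replicate 2 the core particle's median was -0.004, and without wild-type replicate 3 it was 0.01, with -0.01 for the regulatory particle. Without heterozygous replicate 1 the regulatory particle's median was -0.0006.

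The induced subunits take the place of the cutting ones when interferon acts, so each was set against its counterpart within an array. Psmb8 read 664.9, 1044.3 and 1647.6 in heterozygous colon, against 617.8, 363.4 and 669.6 in wild-type colon (log2 difference 0.95, SE 0.32, limma adjusted p = 0.752). Psmb9 read 705.8, 769.4 and 1270.3 in heterozygous colon, against 560.3, 351.5 and 494.8 in wild-type colon (log2 difference 0.92, SE 0.24, limma adjusted p = 0.635). Neither passed the test. Every heterozygous Psmb9 value was above every wild-type one, which held for 5.58% of all tested genes. Psmb10 read 2336.9, 2251.1 and 2891.5 in heterozygous colon, against 2500.0, 1914.2 and 1867.0 in wild-type colon (log2 difference 0.25, SE 0.15). Psme1, of the induced activator, read 3111.9, 3459.0 and 3865.9 in heterozygous colon, against 3302.8, 2893.6 and 2995.3 in wild-type colon (log2 difference 0.18, SE 0.11). The genotypes overlapped for both, and Psme2 is not given because its probe set also names Psme2b.

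The log2 ratio of Psmb8 to Psmb5 was -1.53, -0.82 and -0.25 in heterozygous colon, against -1.80, -2.07 and -1.28 in wild-type colon. It was 0.85 higher in heterozygous colon, a 1.80-fold difference, with overlapping arrays (exact two-sided permutation p = 0.2, 0.3 adjusted over the 3 pairs). The ratio of Psmb9 to Psmb6 was -1.75, -1.50 and -0.86 in heterozygous colon, against -2.17, -2.59 and -2.09 in wild-type colon. It was 0.91 higher, or 1.88-fold, in 3 of 3 heterozygous arrays above all wild-type arrays (exact permutation p = 0.1, 0.3 adjusted), and no p below 0.1 is possible with 3 arrays per genotype. The ratio of Psmb10 to Psmb7 was -1.03, -0.50 and -0.75 in heterozygous colon, against -0.997, -0.946 and -1.02 in wild-type colon (difference 0.23, exact permutation p = 0.4, 0.4 adjusted). The log2 differences of Psmb5 and Psmb6, 0.11 and 0.01, had the sign of those of Psmb8 and Psmb9, so the differences in the first 2 ratios were slightly smaller than those of the induced genes.

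Marker genes of interferon and of immune cells were read beside these ratios. Of the 19 tested interferon-response genes, 19 had a positive log2 difference, where 4248 of all 8243 tested genes did. The list was chosen with earlier results of these data known. The summed signal of its genes was 10605 to 18306 in heterozygous and 6546 to 7258 in wild-type colon. Below the filter, Mx1 had a lower heterozygous mean (69.7 against 95.6 in wild-type colon), and Mx2 and Cxcl10 had a higher one. Of 7 tested T cell genes, 6 were positive, with summed signals of 849.9 to 3890.3 in heterozygous and 1049 to 1322 in wild-type colon. The negative one was Zap70, a kinase of the T cell receptor, which read 205.8, 121.8 and 94.6 in heterozygous colon, against 392.3, 475.9 and 490.4 in wild-type colon (log2 difference -1.64, SE 0.24, limma adjusted p = 0.108). Cd4, below the filter, read 12.5 to 18.0 in heterozygous and 8.5 to 14.6 in wild-type colon. The mean centred log2 level of the 7 tested T cell genes was -0.69, 0.85 and 1.13 in heterozygous colon. It was -0.45, -0.18 and -0.67 in wild-type colon, so heterozygous replicate 1 was the lowest array. Of 10 tested macrophage and dendritic cell genes, 9 were positive, with 9652 to 12253 in heterozygous and 8389 to 10008 in wild-type colon. Itgam, below the filter, read 36.0, 27.8 and 23.0 in heterozygous colon, against 26.2, 50.1 and 43.9 in wild-type colon. Of 3 tested B cell genes, 2 were positive and 1 negative, with 6422 to 6757 in heterozygous and 5147 to 7523 in wild-type colon. The part of all these marker genes in the ratios was not tested.

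**Figure D4:**
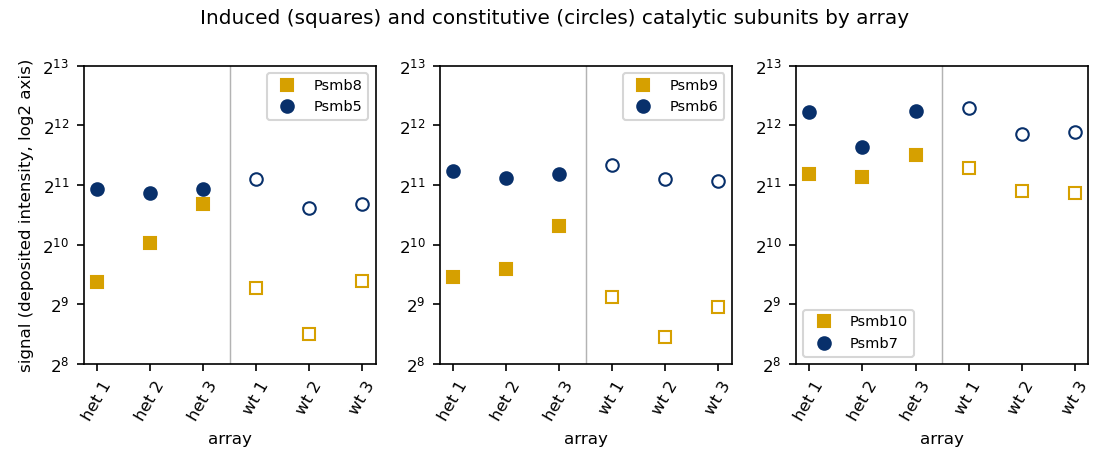
Deposited signal (y axis, log2 axis) of each induced subunit (squares) and its constitutive counterpart (circles) on the 6 arrays, heterozygous (filled) left of wild-type (open), 1 panel per pair. Psmb8 and Psmb9 differ more between arrays than Psmb5 and Psmb6, and distances between a square and a circle are comparable between arrays only, since they come from different probe sets.

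Partners of the proteasome were read from a list of ubiquitin-handling proteins, deubiquitinating enzymes and the transcription factors of the proteasome genes. Of its 33 symbols, 22 were tested, with 16 positive and 6 negative log2 differences and a median of 0.05. Of all 8243 tested genes, 4248 were positive. None of the 22 had an unadjusted limma p under 0.05, against 5.34% of all tested genes. Ubqln2, a shuttle that carries tagged proteins to the cap, read 1115.0, 1106.9 and 937.9 in heterozygous colon, against 1233.6, 1167.0 and 1177.3 in wild-type colon (log2 difference -0.18, SE 0.12, limma adjusted p = 0.917). It was the 1 partner whose genotypes did not overlap, lower on every heterozygous array, although the mean of all its probe sets gave 0.18. This 1 of 22 stands beside 10.7% of all tested genes.

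Zfand5, which stimulates the proteasome in wasting muscle, read 1979.0, 2026.3 and 2216.5 in heterozygous colon, against 1642.6, 1854.4 and 2057.9 in wild-type colon (log2 difference 0.17, SE 0.12). Akirin2, which in human cells takes assembled proteasomes into the nucleus, read 1491.7, 1498.2 and 1535.2 in heterozygous colon, against 1357.9, 1509.3 and 1295.6 in wild-type colon (log2 difference 0.12, SE 0.11). Pomp, the maturation factor of the core particle, read 2932.6, 2863.2 and 2945.1 in heterozygous colon, against 3164.5, 2446.8 and 2415.3 in wild-type colon, with wild-type replicate 1 highest as for most core particle genes. The transcription factors Nfe2l1 and Nfe2l2 had log2 differences of 0.09 (SE 0.11) and 0.08 (SE 0.10). Wild-type replicate 1 was the highest array for 9 of the 22 partners, or 40.9%.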

How the data were processed

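Total RNA was amplified, labelled with biotin and hybridised to 1-colour arrays, per the labels' protocols. The deposited table holds 1 linear intensity for each probe set on each array. The submitters' processing notes name GCOS, whose version, settings and background step the sources used here do not give. The trimmed mean, without the top and bottom 2%, was 500 on every array, so a change in total RNA per cell cannot be seen. Precision is limited by having 3 arrays of each genotype.

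Of 22690 probe sets, 64 controls and those with a mean intensity below the 40th percentile were left out. Genes were named from the platform annotation, updated through the GRCm38.p6 gene table, which changed 0 symbols, and a gene was given by its brightest probe set with 1 symbol. The log2 medians of the arrays spanned 0.09, and only a span over 0.3 would have led to further normalization. Values entered as log2(intensity + 16), which understates the differences of dim genes. limma 3.58.1 in R 4.3.3 (lmFit, eBayes with a variance trend, two-sided) compared the genotypes over all 13576 probe sets, adjusted by Benjamini-Hochberg, at a threshold of 0.05. Within-array ratios had exact permutation tests. The fit was tested on simulated data with independent noise and changes larger than any of the proteasome genes. That test does not show how well small differences would be found. Figures and other values were made with Python 3.11.15, pandas 2.3.3, numpy 2.4.6 and matplotlib 3.10.9.

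The members and lists were chosen with earlier results of these data known. Full values were given for the cutting subunits, for the 2 genes with the smallest p in each group, for the 3 partners with the smallest p and for 4 induced subunits, without Psme2, whose probe set names several genes. Psma6, Psma7, Psmd1, Psmd7, Psmd14, Pomp and the dimmer probe sets of Psmc4, Psme4 and Psmf1 were added after their values were seen. The alternatives covered normalization, pseudocount, filter, variance model, array weights, the replicate number, single arrays and the probe sets of a gene.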

Additional observations from a re-analysis of the deposited data

How the results depend on the processing

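The count of proteasome genes with a limma adjusted p under 0.05 was 0 under all alternatives run: quantile normalization, pseudocounts of 1 and 64, no filter or one at the 60th percentile, no variance trend, robust variances, array weights, the mean of all probe sets, and each array left out. With the replicate number as a block it was also 0, and the medians stayed at 0.06 for the core and 0.04 for the regulatory particle. Deviations of same-numbered arrays correlated at r = -0.12, 0.50 and 0.05 for numbers 1, 2 and 3, across probe sets. The number 2 arrays deviated together and the other same-numbered arrays did not. Unlike-numbered arrays correlated at r = -0.48 to 0.42, highest for heterozygous replicate 1 with wild-type replicate 3. The numbers were therefore not taken as pairs. Over all probe sets, 4 passed with array weights and 8 with robust variances, against 0. With single arrays left out, 0 to 38 probe sets passed: 38 when heterozygous replicate 1 was left out, 2 when it was wild-type replicate 3, and 0 otherwise. In these comparisons 0 to 1 proteasome gene had an unadjusted p under 0.05. The cause was not tested.

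Single values were followed for 27 genes, with partners, induced subunits and Mthfd1 among them. Under the settings that kept all arrays, 259 of their values kept their sign and side of the threshold and 9 turned. Other members were followed by the counts of their group only. With the mean of all probe sets, 7 of the 17 regulatory particle genes were positive, against 11 at the brightest. Array weights gave a log2 difference of -0.0057 for Psmb6 and -0.0133 for Psmb7, and quantile normalization 0.0119 for Psmc3ip. The mean of all probe sets gave -0.17 for Psmb1, -0.17 for Psmd4, -0.0167 for Psmd11, -0.21 for Psme3, 0.0294 for Psmf1 and 0.18 for Ubqln2. With single arrays left out the ranges crossed 0 for Psmb6 (-0.0418 to 0.0885), Psmb7 (-0.0788 to 0.23), Psmb3 (-0.00183 to 0.22), Psmd4 (-0.0584 to 0.12), Psme3 (-0.0139 to 0.28), Psmf1 (-0.11 to 0.056) and Psmc3ip (-0.11 to 0.11). The differences in the ratios ran from 0.54 to 1.18 for Psmb8 to Psmb5, from 0.65 to 1.10 for Psmb9 to Psmb6 and from 0.10 to 0.36 for Psmb10 to Psmb7. Signals over background could not be judged without detection calls.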
